A study of Mus musculus with 32 samples.

Results

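Histone acetylation is written by acetyltransferases, read by bromodomain proteins and erased by deacetylases, and 34 mouse genes of these kinds are described here across sorted intestinal stem cells and progenitors. The genes were chosen by symbol from a fixed list: 11 classical histone deacetylases, 7 sirtuins, 10 acetyltransferases, 2 bromodomain readers of the BET family, 3 nuclear receptor coactivators of the p160 family and the acetyl-CoA synthetase Acss2. All 34 were found among the 50686 genes of the deposited tables. No cut on a measured value was used, but earlier results of these data were known when the list was chosen. PolyA RNA was sequenced from cells sorted by Lgr5-driven GFP, high in stem cells and low in progenitors, and both populations were also EpCAM+, CD24low/-, CD31-, Ter119-, CD45- and 7AAD-. Every mouse was C57BL6 and carried the Villin-CreER and Lgr5-GFP-IRES-CreER alleles, and the Cpt1a-deficient mice carried Cpt1afl/fl in addition. The 8 groups were stem cells and progenitors of Cpt1a-deficient mice on a high-fat diet, of Cpt1a-deficient mice on the high fat control diet, of wild-type mice on the high-fat diet and of wild-type mice on the control diet. Each group held 4 libraries, labelled as 2 from females and 2 from males, and the labels give no age, diet length or tamoxifen schedule. Villin-CreER acts in the whole intestinal epithelium, so both populations of a deficient mouse were targeted. The labels do not say whether a stem cell and a progenitor library came from the same animal, or that each library came from its own animal, so p-values measure the spread between these libraries.

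Acetyl groups on histone lysines come from acetyl-CoA, are added by families of acetyltransferases and loosen the hold of the histone on DNA, while bromodomain proteins bind the acetylated lysines and recruit the transcription machinery. Classical deacetylases use zinc, and class I enzymes work in nuclear corepressor complexes, class IIa enzymes shuttle between nucleus and cytoplasm, and sirtuins use NAD and so respond to the redox state of the cell. Fat oxidation yields acetyl-CoA and ketone bodies in mitochondria, and in the crypt the ketone beta-hydroxybutyrate is known as an inhibitor of class I deacetylases. Cpt1a, the enzyme whose gene was deleted, admits long-chain fatty acids to mitochondria. The comparisons below ask how the RNA of these genes differed between stem cells and progenitors, between diets and between genotypes.

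The promoters shown are of the 3 members that were highest in stem cells relative to progenitors, among those past the test in each of the 4 conditions. They were picked after their values were seen, and whether these genes are regulated together was not tested. Sequences are from RefSeq (GRCm38.p6), upstream of the annotated start and cut before any annotated exon, and capitals mark every match, on either strand, to the motifs searched. The GC box was searched as GGGCGG and the E-box of Myc-type factors as CACGTG. The CCAAT box was searched by its own letters and the core that ETS factors bind as CCGGAAG. The core that TCF factors of the Wnt pathway bind was searched as CTTTGA. Hdac5 is shown at chr11:102230173-102230422 on the minus strand, Acss2 at chr2:155517793-155517947 on the plus strand and Hdac11 at chr6:91156565-91156664 on the plus strand.
Hdac5: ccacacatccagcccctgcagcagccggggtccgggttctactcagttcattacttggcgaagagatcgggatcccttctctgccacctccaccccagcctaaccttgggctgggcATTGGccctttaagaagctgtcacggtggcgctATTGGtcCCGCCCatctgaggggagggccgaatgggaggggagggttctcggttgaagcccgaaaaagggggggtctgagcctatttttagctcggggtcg
Acss2: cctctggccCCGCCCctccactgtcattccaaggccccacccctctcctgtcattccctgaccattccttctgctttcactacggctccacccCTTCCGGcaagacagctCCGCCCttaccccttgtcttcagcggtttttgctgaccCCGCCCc
Hdac11: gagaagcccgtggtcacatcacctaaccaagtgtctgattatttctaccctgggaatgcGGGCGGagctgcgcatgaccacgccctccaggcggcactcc
The stretch of Hdac5 holds 1 GC box and 2 CCAAT boxes, that of Acss2 holds 3 GC boxes and 1 ETS core, and that of Hdac11 holds 1 GC box. Among 32851 RefSeq promoter windows of 250 bases upstream, 32.7% held a GC box, 33.8% a CCAAT box and 6.91% the ETS core. No E-box or TCF core match stood in the printed stretches, and these were found in 6.02% and 13.8% of all windows. Promoter windows were found for 28 of the 34 members, and 24 of their 40 windows held a GC box. A match describes the letters and shows no binding.

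Libraries held 3307711 to 7337425 estimated counts. Cpt1a checked the genotype labels: it had 18.8 to 30.6 CPM (counts scaled to a common library size after TMM normalization) in the 16 deficient libraries and 119 to 347 CPM in the 16 wild-type libraries. The sort was checked by marker lists. The summed CPM of 12 crypt base stem cell markers was 14138 to 19495 in stem cells and 3080 to 7760 in progenitors, and these ranges did not overlap. Progenitors carried secretory markers instead: 10 goblet markers summed to 269 to 922 CPM in stem cells and 9676 to 27183 CPM in progenitors, 10 Paneth markers to 192 to 2169 against 3120 to 21333 CPM, and 10 enteroendocrine markers to 4.78 to 55.8 against 601 to 1465 CPM. Enterocyte markers summed to 864 to 2412 CPM in stem cells and 2207 to 7852 CPM in progenitors, tuft markers to 4.56 to 17.8 against 22.2 to 64.5 CPM, and white blood cell markers to 6.20 to 14.5 against 10.8 to 35.3 CPM. Endothelial and stromal markers stayed at or under 1.05 CPM in every library. Each value below is a level in bulk RNA, in which fewer cells of a type and less RNA per cell cannot be told apart, and the part of the secretory cells in the population differences was not tested apart from the covariate given with them.

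Levels between genes were compared per length, in TPM, which divides by transcript length. On the log2(TPM + 1) scale the median of all genes was 0.27 higher in stem cells. The populations are therefore compared in CPM further below, not by these TPM levels. Of the class I deacetylases 3 of 4 led in both populations. Hdac2, Hdac1 and Hdac3 had medians of 204, 193 and 152 TPM over the 16 stem cell libraries, and 155, 155 and 106 TPM over the 16 progenitor libraries. The ranges of Hdac2 (184 to 220 TPM) and Hdac1 (173 to 205 TPM) overlapped in stem cells, so their order is not fixed by these libraries, and Hdac3 (131 to 179 TPM) overlapped with the lower edge of Hdac1. Acss2, which makes acetyl-CoA from acetate in cytosol and nucleus, ranked next in stem cells with a median of 144 TPM and 114 to 198 TPM, and in progenitors it ranked below Hat1 and Sirt7 with a median of 62.3 TPM and 46.7 to 88.8 TPM. Hat1, which acetylates newly made histones before they enter chromatin, had medians of 110 TPM in stem cells and 90.5 TPM in progenitors. The p300/CBP writers were far lower: Ep300 had medians of 10.4 TPM in stem cells and 6.08 TPM in progenitors, and Crebbp of 7.41 and 5.12 TPM. At the low end, Kat6a had medians of 2.69 TPM in stem cells and 1.81 TPM in progenitors, and Hdac7 of 1.82 and 1.46 TPM. Hdac9, a class IIa deacetylase known from muscle and brain, drew 0 counts in the 16 stem cell libraries and 4 counts in the 16 progenitor libraries. A count of 0 allows up to 0.0344 CPM over the summed stem cell libraries, counting error only, and Hdac9 was the 1 member that did not pass the filter on low counts, so tests cover 33 members.

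**Figure D1:**
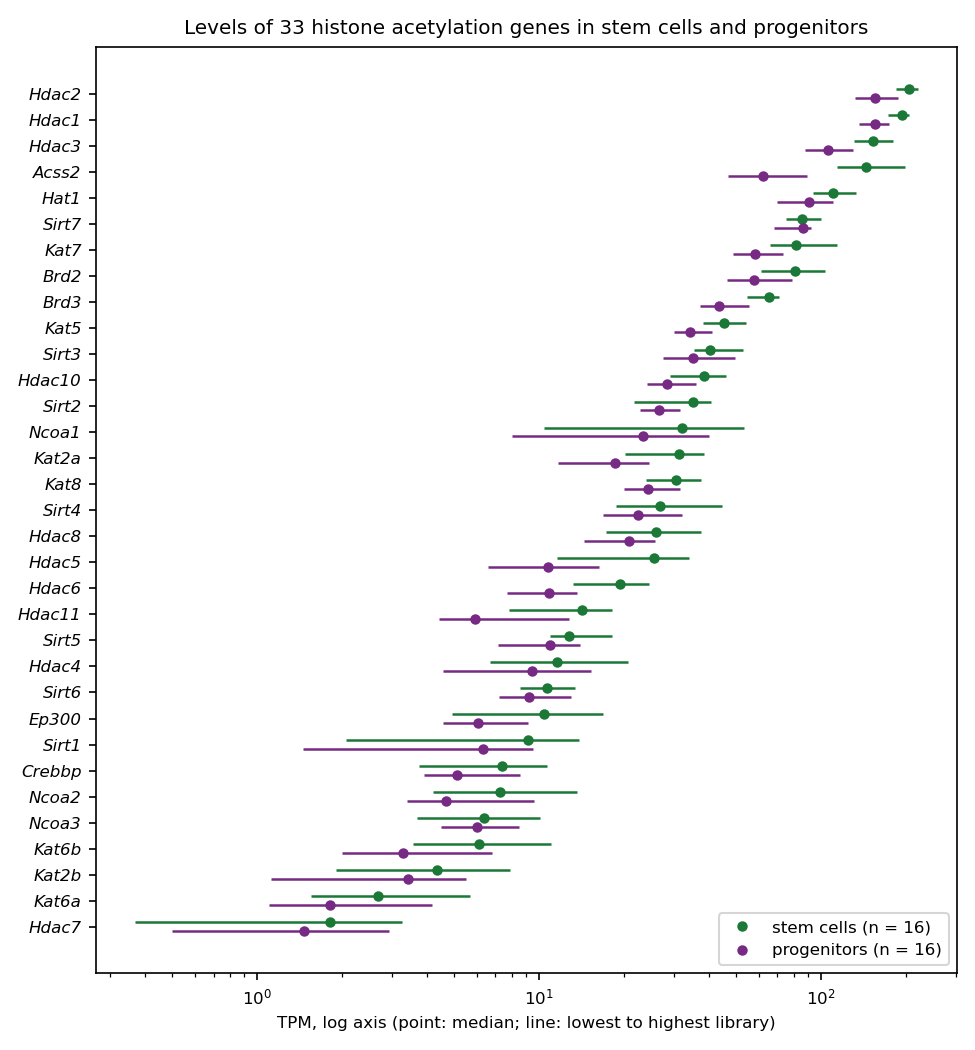
Level of 33 members in TPM on a log axis, sorted by the stem cell median, with the median (point) and the lowest to highest library (line) of 16 stem cell and 16 progenitor libraries. Hdac2, Hdac1 and Hdac3 stand at the top, the Acss2 ranges of the populations lie apart, and Sirt1 and Ncoa1 have the widest ranges among the well detected genes.

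Stem cells and progenitors differed at most of these genes, with more members higher in stem cells than lower. In edgeR's quasi-likelihood test over all 32 libraries, averaged over the 4 conditions of genotype and diet, 17 of 33 members were higher in stem cells and 2 were lower at an adjusted p under 0.05. Over all 13088 genes tested, 63.5% passed, 32.5% higher and 31.0% lower, so the share of members that passed was close to that of genes in general, while 17 higher stood against 2 lower. The median log2 fold change was 0.17 over the members and 0.02 over all genes. Within single conditions 8 members rose and 2 fell in Cpt1a-deficient mice on the high-fat diet (31.4% of all genes passed in either direction), 11 rose and 0 fell in deficient mice on the control diet (36.8%), 7 rose and 1 fell in wild-type mice on the high-fat diet (37.3%) and 10 rose and 1 fell in wild-type mice on the control diet (41.4%). With 1 library left out, deficient mice on the high-fat diet had 3 to 10 members higher and 0 to 2 lower. Hdac3, Hdac5, Hdac6, Hdac11 and Acss2 rose in all 4 conditions. Positive values in all 4 conditions were seen for 20 members and negative ones for 3, whether or not they passed. The shares of all genes that passed in all 4 conditions, or had the same sign in all 4, were not counted. These counts are therefore a description only. With limma on the deposited log2(TPM + 1) values, 27 members were higher and 0 lower, on a scale where the median of all genes was 0.27 and 7617 of 9598 calls were higher. With the mean level of the secretory markers of each library (goblet, Paneth, enteroendocrine) in the model, 1 member passed (higher) and 0 fell, in a fit that left 143 calls among all genes, and the levels of these markers do not overlap between the populations.

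**Figure D2:**
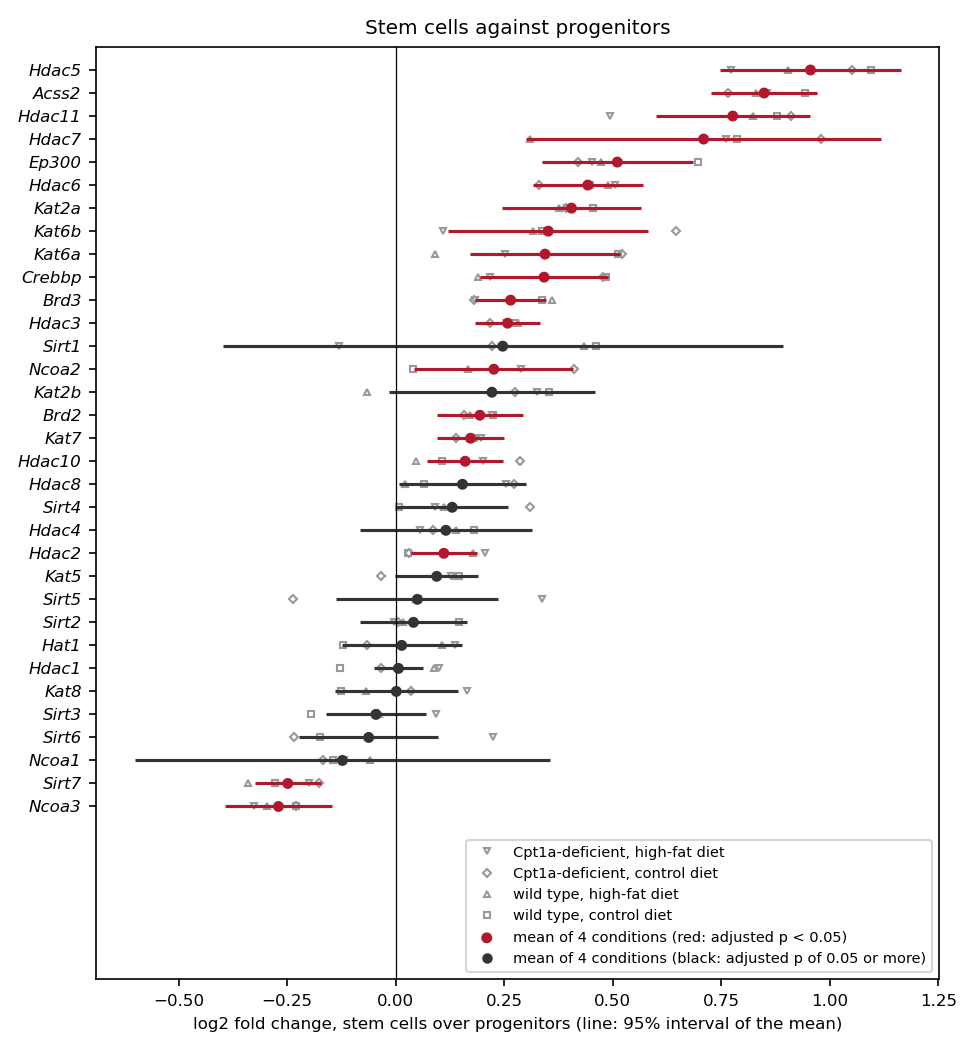
Log2 fold change of stem cells over progenitors for 33 members, as the mean of 4 conditions with its 95% interval (filled points) and in each condition (open marks). Hdac5, Acss2 and Hdac11 lie farthest to the right at 0.96, 0.85 and 0.78. Sirt7 and Ncoa3 are the 2 red points left of 0. On the log2(TPM + 1) scale both were above 0, but below the median of all genes there (0.27).

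Class IIa deacetylases, which are thought to act mainly as scaffolds that bring class I enzymes to transcription factors such as Mef2, held the largest difference. Hdac5 (chr11:102194432-102230166, minus strand) had 20.0, 46.4, 42.3 and 24.8 CPM in stem cells and 17.3, 22.2, 22.2 and 16.3 CPM in progenitors of deficient mice on the high-fat diet. On the control diet it had 40.7, 39.4, 49.0 and 49.9 CPM in deficient stem cells, against 18.7, 16.4, 27.2 and 24.0 CPM in deficient progenitors. In wild-type mice on the control diet it had 47.4, 50.7, 38.9 and 52.8 CPM in stem cells and 22.1, 21.3, 21.2 and 24.2 CPM in progenitors. The populations lay apart in both control-diet pairs, while on the high-fat diet 1 deficient stem cell library, at 20.0 CPM, fell among the progenitors. Under high-fat feeding, wild-type stem cells, at 35.1, 50.1, 40.2 and 27.5 CPM, all stood above wild-type progenitors, at 17.8, 22.2, 22.3 and 19.7 CPM. The log2 fold change was 0.96 ± 0.10 (SE, 16 libraries a side), a 1.94-fold difference with an adjusted p of 1.85e-09. Hdac7, the class IIa enzyme known from thymocytes and endothelium, was 0.71 ± 0.20 higher on the log2 scale (adjusted p = 0.00270) at a low level of 0.881 to 5.54 CPM (median 3.53) in stem cells and 0.937 to 4.01 CPM (median 1.91) in progenitors. Those ranges overlapped nearly throughout, and on log2(TPM + 0.1) the adjusted p was 0.0539. Hdac4 did not pass, with 0.12 ± 0.10.

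The class IIb and class IV enzymes were all higher in stem cells, 3 of 3, beside 32.5% of all genes. Hdac11 (chr6:91156665-91174692, plus strand), the lone class IV enzyme, which is known to remove fatty acyl groups from lysine, had 12.8 to 21.9 CPM with a median of 19.0 in stem cells and 7.82 to 13.7 CPM with a median of 10.1 in progenitors. The 2 lowest stem cell libraries, both from deficient mice on the high-fat diet, lay within the progenitor range. Its log2 fold change was 0.78 ± 0.09, or 1.71-fold, with an adjusted p of 4.33e-09. Hdac6 (chrX:7930120-7947889, minus strand), the cytoplasmic deacetylase of tubulin, had 32.2 to 47.9 CPM with a median of 38.4 in stem cells and 23.6 to 34.8 CPM with a median of 27.9 in progenitors. The 4 lowest stem cell libraries lay within the progenitor range, and the log2 fold change was 0.44 ± 0.06 (adjusted p = 2.91e-07). Hdac10, known as a polyamine deacetylase, differed by 0.16 ± 0.04 (adjusted p = 0.00157).

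Class I deacetylases differed little. Hdac3, the enzyme of the NCoR and SMRT corepressors and of known importance for the intestinal epithelium, had 158 to 208 CPM with a median of 183 in stem cells and 129 to 180 CPM with a median of 151 in progenitors. It was 0.26 ± 0.04 higher on the log2 scale (adjusted p = 4.32e-07) and passed in every condition. Hdac2 was 0.11 ± 0.04 higher (adjusted p = 0.0105). Its partner Hdac1, with which it shares the Sin3, NuRD and CoREST complexes, had a log2 difference of 0.01 ± 0.03 and a 95% interval of -0.05 to 0.06, the narrowest of the members. Hdac8, which deacetylates cohesin, did not pass at 0.15 ± 0.07 (adjusted p = 0.0594).

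Among sirtuins edgeR called 0 of 7 higher (32.5% of all genes) and 1 lower (31.0%). Sirt4 alone was higher at an unadjusted p under 0.05 in edgeR (34.1% of all genes). DESeq2 also called 0 higher, while limma on log2(TPM + 1) called 5 higher, Sirt2 to Sirt6, at 0.21 to 0.33 where all genes had a median of 0.27. Sirt7 (chr11:120618372-120625240, minus strand), a nucleolar enzyme linked to ribosomal RNA synthesis, had 82.6, 82.1, 81.1 and 81.8 CPM in stem cells and 93.6, 81.8, 98.6 and 102.6 CPM in progenitors of deficient mice on the high-fat diet. Wild-type stem cells under that diet had 92.6, 92.2, 80.8 and 80.8 CPM, against 113, 107, 110 and 109 CPM in wild-type progenitors. The wild-type pair did not overlap and the deficient pair did, by 1 progenitor library. On the control diet both pairs overlapped, with 79.3 to 91.0 CPM in stem cells and 90.4 to 99.6 CPM in progenitors of deficient mice, where the difference did not pass (adjusted p = 0.0650), and 79.4 to 91.4 against 89.5 to 112 CPM in wild-type mice, where it did (adjusted p = 0.00354). Its log2 fold change of -0.25 ± 0.04 had an adjusted p of 1.01e-06. On the log2(TPM + 1) scale it was 0.04, with the sign turned, though below the median of all genes there (0.27). Sirt7 shares 124 exonic bases on its own strand with Mafg, which did not pass (0.11 ± 0.06). The mitochondrial sirtuins Sirt3, Sirt4 and Sirt5 had log2 differences of -0.05 ± 0.06, 0.13 ± 0.06 and 0.05 ± 0.09, and the others, Sirt1, Sirt2 and Sirt6, of 0.25 ± 0.31, 0.04 ± 0.06 and -0.06 ± 0.08. The interval of Sirt1 ran from -0.40 to 0.89, so a fall or a rise within these bounds cannot be told from no difference.

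Of the writers, both p300/CBP enzymes, the broad coactivators of enhancers, were higher in stem cells, as were 32.5% of all genes. Ep300 (chr15:81585351-81652077, plus strand) had 19.4 to 36.2 CPM with a median of 30.3 in stem cells and 15.3 to 24.9 CPM with a median of 21.4 in progenitors, and 3 stem cell libraries lay within the progenitor range. Its log2 fold change was 0.51 ± 0.09 (adjusted p = 5.37e-06), and that of Crebbp was 0.34 ± 0.07 (adjusted p = 0.000123). In the MYST family 3 of 5 rose, beside the same 32.5% of all genes. Kat6b rose by 0.35 ± 0.11 and Kat6a by 0.34 ± 0.09, the paralogous catalytic subunits of one kind of complex. Kat7, an enzyme tied to replication origins, rose by 0.17 ± 0.04. Kat5 (the TIP60 catalytic subunit, 0.09 ± 0.05) and Kat8 (0.00 ± 0.07) did not pass. Of the remaining writers Kat2a, the catalytic subunit of SAGA, was 0.41 ± 0.08 higher, while its paralog Kat2b (0.22 ± 0.12) and Hat1 (0.01 ± 0.07) did not pass.

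Both BET readers were higher in stem cells, as were 32.5% of all genes. Brd3 was higher by 0.26 ± 0.04 (adjusted p = 1.18e-06) and Brd2 by 0.19 ± 0.05 (adjusted p = 0.000905). Brd2 shares 360 exonic bases on the opposite strand with H2-DMa, an antigen presentation gene that was itself 0.57 ± 0.16 higher, and since the strand setting of the counting is not given in the sources used here, reads of the 2 genes cannot be told apart there. The p160 coactivators, which nuclear receptors bind, went different ways. Ncoa2 was 0.23 ± 0.09 higher (adjusted p = 0.0283), a call that was lost in 6 of 32 fits with 1 library left out. Ncoa3 had 13.1 to 19.1 CPM with a median of 16.5 in stem cells and 16.2 to 25.1 CPM with a median of 19.2 in progenitors. It was lower by log2 fold change at -0.27 ± 0.06 (adjusted p = 0.000243), but 0.05 on the log2(TPM + 1) scale, again with the sign turned. That value too was below the median of all genes there (0.27). Ncoa3 shares 154 exonic bases on the opposite strand with Sulf2 (-1.05 ± 0.21). Ncoa1 did not pass (-0.12 ± 0.23).

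Acss2 (chr2:155517948-155585724, plus strand) separated the populations most cleanly. It had 220, 277, 210 and 228 CPM in stem cells and 135, 157, 107 and 117 CPM in progenitors of deficient mice on the high-fat diet. On the control diet it had 184, 221, 220 and 244 CPM in deficient stem cells, against 112, 118, 152 and 129 CPM in deficient progenitors. In wild-type mice on the control diet it had 238, 263, 237 and 253 CPM in stem cells, against 124, 154, 109 and 128 CPM in progenitors. All 16 stem cell libraries lay above all 16 progenitor libraries, which was true of 3.25% of all genes and of no other member. Its log2 fold change was 0.85 ± 0.06, or 1.80-fold, with an adjusted p of 1.83e-13. Acss2 shares 395 exonic bases on the opposite strand with Gss, which is expressed at a higher count and differed by 0.02 ± 0.04, and 197 with Ggt7, which was 2.83-fold higher at a total of 448 counts against 31836 for Acss2. The 2 other Acss genes passed and moved the same way. Acss3 was higher by 2.07 ± 0.17, with a median of 15.5 CPM in stem cells and 3.19 CPM in progenitors. Acss1 was higher by 0.59 ± 0.06.

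**Figure D3:**
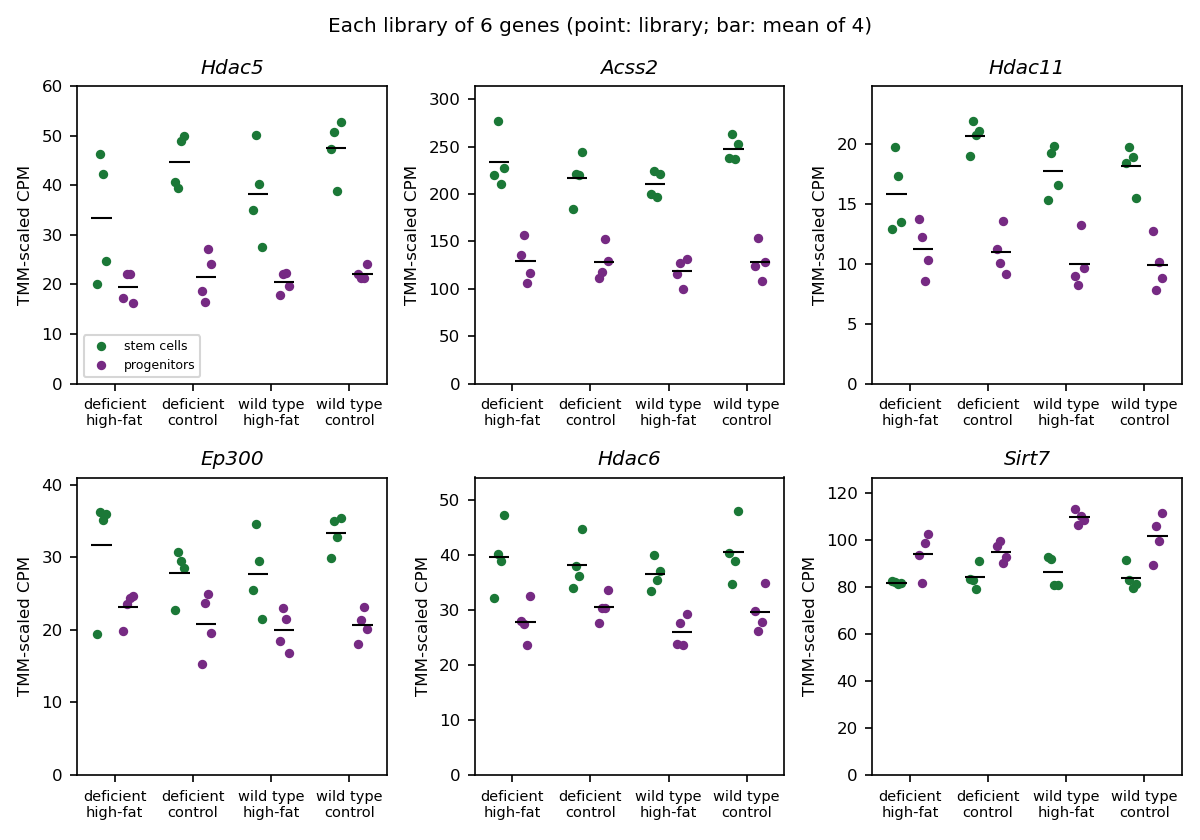
CPM of 6 members in each library of the 8 groups, with stem cells left of progenitors in each condition and a bar at the mean of 4. The Acss2 points of the populations do not overlap, 1 deficient stem cell library on the high-fat diet falls to 20.0 CPM for Hdac5, and Sirt7 lies lower in stem cells on the CPM scale.

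Related genes were counted from lists that hold none of the members. For comparison, 32.5% of all 13088 genes tested were higher in stem cells and 31.0% lower, 63.5% in either direction. Of 33 tested partners of deacetylase complexes, 13 were higher in stem cells and 3 lower, with a median log2 fold change of 0.12. The Sin3 subunits Sap30 (0.58 ± 0.06) and Arid4b (0.34 ± 0.05) and the corepressor subunit Tbl1x (0.40 ± 0.05) rose, and Tbl1xr1 (-0.33 ± 0.07), Sin3b (-0.25 ± 0.05) and Rcor2 of the CoREST complex (-0.54 ± 0.20) fell. Of 49 partners of acetyltransferases 30 rose and 4 fell, with a median of 0.24. The SAGA subunits Usp22 (0.73 ± 0.05), Supt20 (0.33 ± 0.04) and Taf5l (0.30 ± 0.03) rose. Morf4l2 (-0.48 ± 0.04), Brpf3 (-0.35 ± 0.09) and Eny2 (-0.29 ± 0.07), which is a SAGA subunit too, fell. Of 25 tested other readers 17 rose and 3 fell, with a median of 0.20. Zmynd8 (0.67 ± 0.07), Smarca2 (0.52 ± 0.06) and Trim28 (0.34 ± 0.05) rose. Dpf3 (-1.34 ± 0.23), the YEATS reader Mllt3 (-1.15 ± 0.08) and Baz1a (-0.16 ± 0.06) fell. Dpf3 passed the filter on low counts in progenitors but not in stem cells fitted alone. Its place among the tested genes thus rests on the side where it is higher, and its fall is no independent result.

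Genes that supply the cofactors went less evenly, beside 32.5% higher and 31.0% lower among all genes. Of 10 other genes listed under acetyl-CoA supply 2 rose, Acss3 and Acss1 as given above, and 5 fell, with a median of -0.23. Those that fell with the smallest p were subunits of the mitochondrial pyruvate dehydrogenase complex, Pdhb (-0.43 ± 0.04), Dld (-0.42 ± 0.05) and Pdhx (-0.31 ± 0.04). Acly, which makes acetyl-CoA from citrate, did not pass (-0.15 ± 0.08). Of 10 tested genes of NAD supply and use 3 rose and 3 fell, with a median of 0.00. The consumers Parp1 (0.38 ± 0.06) and Parp2 (0.16 ± 0.04) and the synthase Nmnat2 (2.06-fold) rose, and Nampt, the rate-limiting enzyme of NAD salvage (-0.39 ± 0.06), Nadsyn1 (-0.40 ± 0.05) and the consumer Cd38 (-0.30 ± 0.04) fell. Nmnat2 passed the filter on low counts in neither population fitted alone, only with all libraries together.

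No member passed the test for diet in either population. In stem cells, the effect of the high-fat over the control diet passed for 0 of 33 members as the mean over genotypes (0.959% of all genes passed), in deficient mice (0.0645%) and in wild-type mice (0.250%). In progenitors 0 of 33 passed as the mean (0.891%), in deficient mice (0.313%) and in wild-type mice (0.0883%). At an unadjusted p under 0.05, edgeR gave 5, 1 and 5 members in stem cells (against 11.9%, 4.71% and 11.7% of all genes) and 2, 3 and 0 in progenitors (11.3%, 9.77% and 7.06%). These shares of members are near or below those of all genes, apart from the stem cell mean and wild type, where 5 of 33 is slightly above. DESeq2 and the other settings made no adjusted call either except 1 fit with a library left out, given below. The smallest adjusted p belonged to Kat6a in stem cells. It had 10.1, 10.7, 11.0 and 9.82 CPM on the high-fat diet, against 14.3, 12.98, 12.1 and 12.6 CPM on the control diet, in deficient stem cells. In wild-type stem cells it had 8.54, 11.1, 14.6 and 9.16 CPM on the high-fat diet, against 15.5, 13.3, 15.2 and 15.3 CPM on the control diet. The deficient groups did not overlap, as for 3.22% of all genes, and the wild-type groups did. The mean log2 fold change was -0.38 ± 0.11 with an adjusted p of 0.139, and without the third wild-type high-fat library, at 14.6 CPM, the adjusted p was 0.0296.

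In stem cells Hdac7 and, in wild-type mice, Acss2 were also below the control without passing. Hdac7 had a mean log2 value of -0.74 ± 0.28 (adjusted p = 0.269), from 1.37, 2.17, 1.90 and 4.71 CPM on the high-fat diet against 3.88, 5.54, 3.38 and 2.48 CPM on the control diet in deficient mice. In wild-type mice Hdac7 had 3.12, 3.67, 2.79 and 0.881 CPM on the high-fat diet, against 4.20, 5.51, 4.64 and 5.41 CPM on the control diet. Only the wild-type groups lay apart. Acss2 in wild-type stem cells had 200, 224, 197 and 221 CPM on the high-fat diet, against 238, 263, 237 and 253 CPM on the control diet, without overlap. Its log2 value was -0.23 ± 0.10 with an adjusted p of 0.377, and in deficient stem cells the diet groups overlapped. Hdac2 was the other member whose wild-type stem cell groups did not overlap by diet, and it lay the other way, with 239 to 255 CPM on the high-fat diet and 212 to 237 CPM on the control diet (adjusted p = 0.583). With Acss2 and Hdac7 these are 3 of 33 members without overlap, against 6.62% of all genes. Beside these values, the summed goblet markers were 557 to 901 CPM in deficient stem cells on the high-fat diet and 328 to 640 CPM on the control diet, and 790 to 922 CPM against 269 to 534 CPM in wild-type stem cells. Enterocyte markers summed to 1732 to 2412 against 967 to 1120 CPM in deficient stem cells and to 1052 to 1820 against 864 to 1256 CPM in wild-type stem cells. Paneth markers summed to 634 to 2034 against 228 to 1331 CPM in deficient stem cells and to 1235 to 2169 against 192 to 2100 CPM in wild-type stem cells. In the mean over genotypes, 3 of 10 goblet, 3 of 10 enterocyte and 1 of 9 Paneth markers passed as higher on the high-fat diet. Their part in the diet values was not tested.

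In progenitors, Hdac1 had the smallest p for diet. It had 218, 210, 202 and 205 CPM on the high-fat diet and 238, 228, 216 and 228 CPM on the control diet in deficient progenitors, and 204, 204, 196 and 212 CPM against 221, 215, 218 and 230 CPM in wild-type progenitors. The wild-type groups lay apart, as for 4.01% of all genes, and the deficient groups overlapped. The mean log2 value was -0.13 ± 0.04 (adjusted p = 0.245). Crebbp was next at 0.23 ± 0.09 (adjusted p = 0.354). Beside these values, Paneth markers in progenitors summed to 12199 to 21333 CPM on the high-fat diet against 3120 to 10334 CPM on the control diet in deficient mice, and to 11638 to 19817 against 4638 to 12546 CPM in wild-type mice. Enteroendocrine markers had group medians of 1178 against 691 CPM in deficient and 1238 against 797 CPM in wild-type progenitors, and enterocyte markers of 6251 against 4489 CPM and 5085 against 3748 CPM. In the mean over genotypes 2 of 10 enterocyte, 1 of 10 enteroendocrine and 0 of 10 Paneth markers passed, and their part in the diet values of members was not tested.

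Deletion of Cpt1a likewise passed for 0 of 33 members in every comparison. In stem cells the background of all genes was 0.830% as the mean over diets, 0.443% on the high-fat diet and 0.242% on the control diet, and in progenitors it was 1.21%, 0.706% and 0.257%. At an unadjusted p under 0.05, edgeR gave 2, 2 and 0 members in stem cells (against 7.01%, 6.38% and 4.73% of all genes) and 3, 5 and 0 in progenitors (11.2%, 10.6% and 5.80%). Hdac3 had the smallest p in progenitors. It had 162, 180, 141 and 167 CPM in deficient mice and 149, 140, 129 and 145 CPM in wild-type mice on the high-fat diet, and 153, 159, 171 and 153 CPM against 144, 156, 137 and 149 CPM on the control diet. The groups overlapped on both diets, and the mean log2 value was 0.17 ± 0.06 (adjusted p = 0.195). In stem cells Hdac3 had 0.11 ± 0.05 (adjusted p = 0.710). Sirt7 in progenitors on the high-fat diet had 93.6, 81.8, 98.6 and 102.6 CPM in deficient mice and 113, 107, 110 and 109 CPM in wild-type mice. These libraries did not overlap, as for 7.09% of all genes and 3 of 33 members, and the log2 value was -0.21 ± 0.08 (adjusted p = 0.317). In the 5 lists of partners, other readers and cofactor enzymes, Mllt3 alone passed in a diet or genotype comparison. It had 63.3, 63.4, 75.2 and 74.3 CPM in deficient progenitors and 39.9, 38.9, 49.6 and 42.6 CPM in wild-type progenitors on the high-fat diet, and 46.3, 69.1, 37.6 and 36.9 CPM against 29.1, 34.4, 48.0 and 36.4 CPM on the control diet. The groups lay apart on the high-fat diet and overlapped on the control diet. The mean over diets was 0.54 ± 0.12 higher in deficient progenitors (adjusted p = 0.0413).

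The interaction of diet and genotype passed for 0 of 33 members in stem cells and in progenitors, and 0.00% of all genes passed in either. In stem cells edgeR gave 2 members at an unadjusted p under 0.05 (3.58% of all genes), led by Acss2 at 0.35 ± 0.14 (adjusted p = 0.999), and in progenitors 1 (4.50%). Whether the diet or genotype effect differed between the populations was also tested, again with 0 members and 0.00% of all genes passing. There edgeR gave 2 members for diet and 1 for genotype at an unadjusted p under 0.05, against 4.12% of the tests of all genes for both, and the smallest was the diet difference of Hdac1, at 0.17 ± 0.06 higher in stem cells than in progenitors (adjusted p = 0.866). The intervals bound what could have been missed. For the mean diet effect, 27 of 33 members in stem cells and 30 of 33 in progenitors had a 95% interval within 1.5-fold in both directions, and for the mean genotype effect 30 of 33 in each. Sirt1, Ncoa1 and Hdac7 were outside it in all 4 of these comparisons. These comparisons share the libraries of a population, so their values are not independent of each other.

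**Figure D4:**
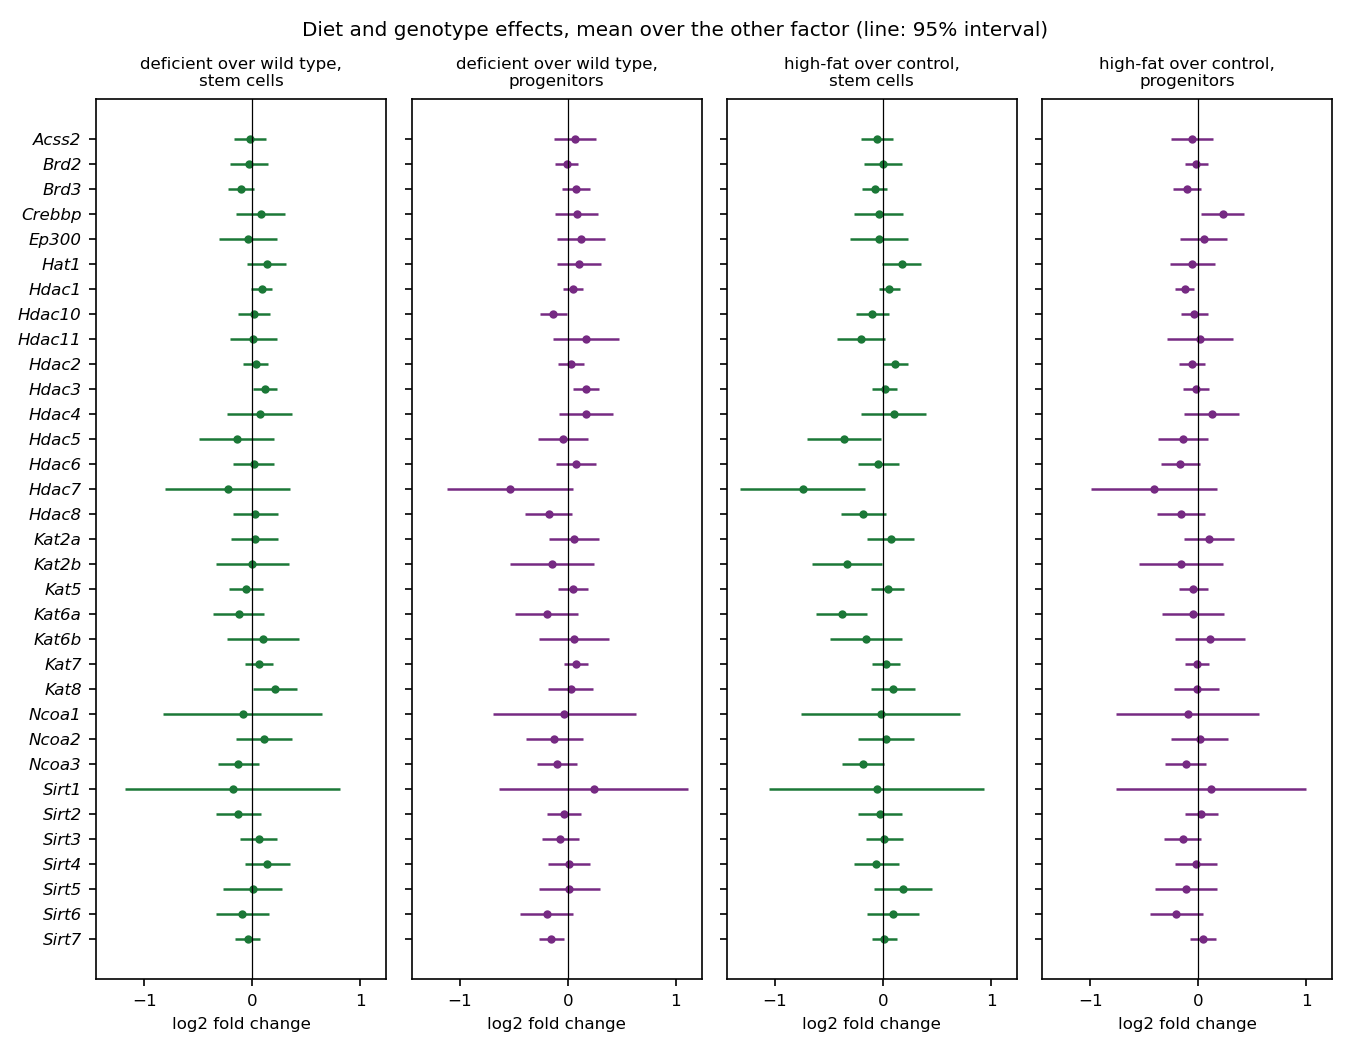
Log2 fold changes of 33 members with 95% intervals for Cpt1a-deficient over wild-type and for high-fat over control diet, in stem cells and progenitors, each as the mean over the other factor. No member passed at an adjusted p of 0.05, most points lie close to 0, and the intervals of Sirt1, Ncoa1 and Hdac7 are the widest.

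Sirt1 and Ncoa1, the members with the widest intervals beside Hdac7, differed between stretches of the library numbers. The numbers in the column names form 4 runs of 8 consecutive libraries, each with 1 library of every group, and the labels do not say what a number stands for. Sirt1, the NAD-dependent deacetylase of many transcription factors, had 3.68 to 8.67 CPM with a median of 5.19 in the first run, 9.70 to 23.4 with a median of 11.8 in the second, 18.3 to 26.2 with a median of 20.4 in the third and 16.6 to 28.3 with a median of 21.4 in the last. The first run did not overlap with any other. Ncoa1 had run medians of 25.5, 43.7, 70.9 and 67.2 CPM. The highest run median was 4.13 times the lowest for Sirt1 and 2.78 times for Ncoa1, and the next member, Hdac7, was at 1.73. A ratio of at least 2 was reached by 2 of 33 members and by 6.45% of the 13088 genes, and the median ratio was 1.16 for members and 1.21 for all genes. The first and second runs had more Xist than Ddx3y in all of their 16 libraries and the other runs in none. Sex and run therefore cannot be told apart between the earlier and the later runs. Sirt1 also differed between the first and second run, and the cause of the run differences was not tested.

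Within each run the population differences kept their direction for the members that passed. The runs hold the same libraries as the tests, so this describes the spread between runs and is no further support. The share of all genes that did so was not counted. The stem cell minus progenitor difference in mean log2(CPM + 0.5) was 0.80 to 1.17 for Hdac5, 0.78 to 0.90 for Acss2, 0.48 to 1.05 for Hdac11, 0.42 to 0.56 for Ep300 and 0.35 to 0.51 for Hdac6 across the 4 runs. It was -0.31 to -0.17 for Sirt7 and -0.36 to -0.13 for Ncoa3. For diet in stem cells, the within-run differences ran from -0.65 to -0.10 for Kat6a and from -0.85 to -0.65 for Hdac7, and in progenitors from -0.13 to -0.10 for Hdac1. For genotype in progenitors they ran from 0.10 to 0.22 for Hdac3. These members were named for their values in the same data. Each diet difference is a mean over genotypes, and for Hdac7 the genotypes went opposite ways in the last run. There deficient stem cells had 4.71 CPM on the high-fat diet against 2.48 CPM on the control diet. Wild-type stem cells of that run were below their control, at 0.881 CPM on the high-fat diet. Other members also kept their sign in every run for diet in stem cells, among them Kat2b (-0.51 to -0.25) and Sirt5 (0.05 to 0.26). The run as a covariate, chosen after seeing the data, made no member pass for diet or genotype.

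**Figure D5:**
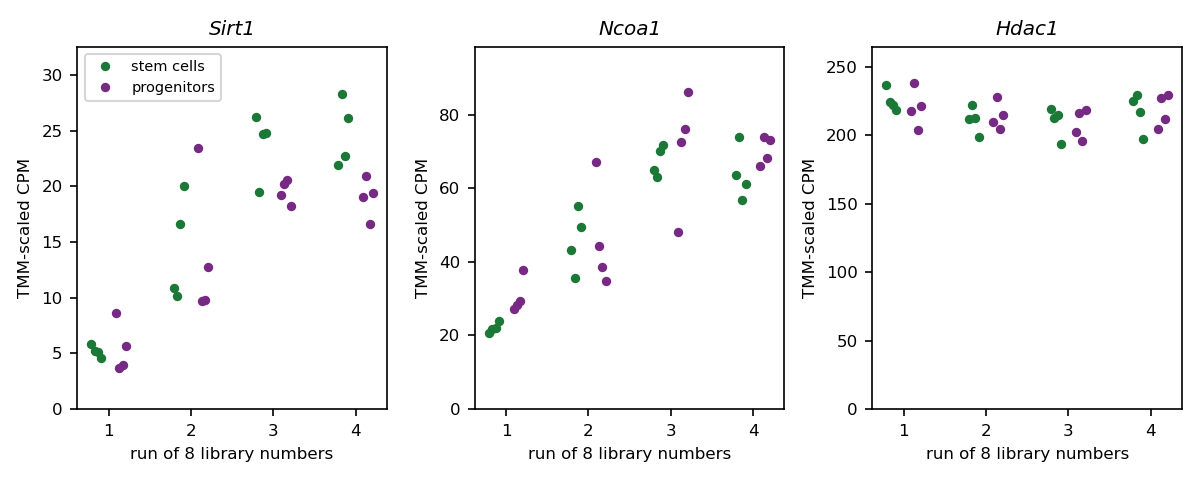
CPM of Sirt1, Ncoa1 and Hdac1 in each library by run of 8 consecutive library numbers, with stem cells left of progenitors. Sirt1 and Ncoa1 are lowest in the first run in both populations, and Hdac1 stays between 194 and 238 CPM in all runs.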

How the data were processed

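PolyA RNA of 32 libraries was quantified by the authors, and STAR 2.5.3a, the quantifier RSEM 1.3.0, SAMtools 1.3 and the build mm10 are named per the submitters' processing notes. The annotation and the strand setting are not given in the sources used here. The deposited expected counts (estimated reads of a gene, which the authors rounded) were tested, and the deposited log2(TPM + 1) values gave levels per length. A gene-name table supplied symbols for 50376 of 50686 genes, and GENCODE M21 (GRCm38) supplied positions. Genes without a symbol held 0.0677% of counts and stayed in the fits.

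Counts were tested in edgeR 4.0.16 (R 4.3.3) by its quasi-likelihood test, fitted robustly with TMM scaling after filterByExpr with a minimum count of 10. P-values were adjusted by Benjamini-Hochberg over all genes tested, with a threshold of 0.05. Stem cells (12409 genes) and progenitors (12460) were fitted apart for diet, genotype and interaction, and all libraries together (13088) for the populations. Standard errors were derived from the fold change and its F statistic. DESeq2 1.42.0 and limma 3.58.1 (pseudocount 1 or 0.1 on TPM) were alternatives, with others named in the closing section, and the scripts were tested on simulated data.

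Totals had a median of 5655066.5 counts, and the limit for a count of 0 (3 counts) covers counting error only. The log2 CPM of replicate libraries correlated at 0.964 to 0.979. The columns name no replicate and no sex. Libraries are therefore given in column order, and no sex term was fitted. Deviations from group means correlated weakly between libraries of the same run of column numbers (median 0.139, lowest -0.084). For the 16 pairs of a stem cell and a progenitor library of 1 condition and run, the median was 0.237 and the lowest 0.103. No label says that such a pair shares an animal, and the fit with these pairs kept all 19 member calls. The members, the related lists and the tests were chosen with earlier results of these data known. Values in every library are given for members past the threshold with the largest differences, up to 6 higher and 6 lower. In the diet and genotype comparisons no member passed, and the members shown were chosen after their values were seen. From each related list up to 3 passing genes in each direction, by smallest p, are named.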

Additional observations from a re-analysis of the deposited data

Results flagged for a closer look

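Single libraries stood apart from the other 3 of their group in 12 of 264 groups of member and condition, by the gap to the nearest library over the range of the group, above Dixon's 95% critical value, and chance gives about 1 in 20. In stem cells on the high-fat diet, the first library of deficient mice was low for Ep300 at 19.4 CPM and high for Sirt4 at 19.0 CPM. In wild-type stem cells on the control diet, single libraries were high for Brd3 (110 CPM), Hdac3 (187 CPM), Kat5 (62.9 CPM) and Kat6b (15.3 CPM) and low for Kat6a (13.3 CPM). In progenitors of deficient mice on the control diet, 1 library was high for Brd2 (112 CPM) and another low for Hdac8 (14.99 CPM). In progenitors of wild-type mice on the control diet, the last library was low for both Crebbp (21.0 CPM) and Kat2a (26.8 CPM), and the third was high for Ncoa3 (25.1 CPM).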

How the results depend on the processing

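With DESeq2 size factors in edgeR, DESeq2, no filter on low counts, the Xist level, the run of library numbers or the 16 pairs of condition and run as a covariate, or without the first run (the last 3 added after seeing the data), the population contrast over conditions kept the 19 member calls in both directions, with 17 or 18 higher and 2 lower. On log2(TPM + 1) and log2(TPM + 0.1) it gave 27 and 26 higher and 0 lower, and with the secretory marker level as a covariate 1 higher and 0 lower. In single conditions the TPM fits gave 17 higher and 0 lower in deficient mice on the high-fat diet, 17 higher in deficient mice on the control diet, 15 higher and 0 lower in wild-type mice on the high-fat diet and 18 higher and 0 lower in wild-type mice on the control diet. The secretory covariate gave 0 higher and 0 lower in deficient mice on the high-fat diet, 0 higher in deficient mice on the control diet, 0 and 0 in wild-type mice on the high-fat diet and 1 and 0 in wild-type mice on the control diet. DESeq2 gave 1 lower in deficient mice on each diet and 2 lower in wild-type mice on the control diet, and the run covariate gave 2 lower in wild-type mice on each diet. Without a filter 5 were higher and 0 lower in deficient mice on the high-fat diet and 5 higher on the control diet. Without the first run, deficient mice had 0 lower on the high-fat diet and 4 higher on the control diet, with fewer libraries in the fit. Fitted with its own groups only, the contrast in deficient mice on the high-fat diet gave 3 higher and 0 lower.

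The sign of Sirt7 turned on both TPM scales to 0.037 (pseudocount 1) and 0.038 (0.1) over conditions. Its value was 0.011 in wild-type mice on the control diet and 0.10 in deficient mice on the high-fat diet. The sign of Ncoa3 turned to 0.053 and 0.057 over conditions. All genes had medians of 0.27 and 0.30 on these scales over conditions, above the values of both members. With the secretory covariate the values over conditions were -0.13 for Brd3, 0.35 for Ncoa3 and -0.18 for Hdac2. The median SE over members in that fit was 0.43. The levels of the secretory markers do not overlap between the populations, so that fit cannot settle the direction of these genes. Under the same covariate Brd3 had -0.068 in wild-type mice on the control diet and -0.014 on the high-fat diet, and in deficient mice on the high-fat diet Ncoa3 had 0.27 and Hdac2 -0.071. The cause was not tested. With 1 library left out at a time, 18 of the 19 calls over conditions were kept in all 32 fits, and Ncoa2 lost its call in 6 (without the second stem cell library of either genotype on the high-fat diet, the third stem cell library of deficient mice on the control diet, the third progenitor library of deficient mice on the high-fat diet or the second on the control diet, or the last progenitor library of wild-type mice on the control diet). The counts ranged from 3 to 10 higher and 0 to 2 lower in deficient mice on the high-fat diet, where each library of its stem cells or progenitors except the second of the progenitors moved a count by over 1.5 times. They ranged from 6 to 12 higher (6 without the first progenitor library) and 0 to 1 lower (1 without the last stem cell library) in deficient mice on the control diet, and from 1 to 2 lower in wild-type mice on each diet (2 without the first stem cell library on the control diet, and on the high-fat diet without the last progenitor library or the third of the progenitors on either diet). For diet or genotype, 0 of 5486 member tests under the other alternatives passed, the smallest adjusted p being 0.0630 for Hdac1 in progenitors, and 1 of 9504 with a library left out did, so that Kat6a made the count for diet in stem cells range from 0 to 1 lower.

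No paired analysis was possible because the columns carry no replicate number, if pairing is taken by the labelled number. Pairing by condition and column run, which the labels do not give, is the fit with 16 pairs above (18 higher and 2 lower). The columns name no sex either, and the Xist level stood in as a covariate. Hdac7 and Kat2b had the fewest counts of the tested members, 499 and 963 over all libraries, and Sirt1 and Ncoa1 vary more between runs than between groups.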
